A study of Homo sapiens with 54 samples.

Results

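The 10 KLF genes described here, KLF2, KLF4, KLF5, KLF6, KLF7, KLF9, KLF10, KLF11, KLF13 and KLF16, were found by gene name in every deposited library, and they are 10 of the 60676 genes listed. RNA-seq had been performed on hMSN-like cells, human medium spiny neuron-like cells differentiated from H9 embryonic stem cells, an established line known also as WA09. All libraries therefore share 1 donor genotype. Of 54 labelled samples, 53 libraries of 18 conditions in 4 experiments were analysed, with 3 libraries per condition except 2 at 5 Day. Each condition is a set of labelled replicates, which the study calls independent without saying for RNA-seq whether they were separate wells or differentiations, so p-values measure the spread between these samples.

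In the 1 mM and the 1 µM dopamine experiments, cells received 1 dose (Acute) or 5 daily doses (Chronic) and the final dose was followed by RNA extraction at 1 h or at 24 h, with PBS as the control of each experiment. Acute cells were extracted at an earlier day in culture than Chronic cells, and dopamine was dissolved in ascorbic acid, which the PBS label does not mention, so those factors cannot be told apart from the treatment. In the time course, cells received 1 mM dopamine daily for 2, 3, 4 or 5 days and were all extracted on the same day, 1 h after the last dose, with ascorbic acid (AA) as the control. In the agonist experiment, cells received 50 µM of SKF82958, a D1-like receptor agonist, or of quinpirole, a D2-like receptor agonist, with water as the control. The sequencing provider of each library is not given in the sources used here, so no sequencing batch was modelled.

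KLF proteins are transcription factors whose C-terminal zinc fingers bind GC-rich and CACCC-type sites in promoters and enhancers. They fall into a group that mostly activates transcription with p300/CBP, here KLF2, KLF4, KLF5, KLF6 and KLF7, and a group that recruits the SIN3A corepressor, here KLF9, KLF10, KLF11, KLF13 and KLF16. Several are early response genes to growth factors, serum or hormones, and in neurons KLF family members are known for promoting (KLF6 and KLF7) or limiting (KLF4 and KLF9) axon growth.

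By the coordinates of the deposited tables (GRCh38), KLF2 lies on chromosome 19 from 16324817 to 16327874, KLF4 on chromosome 9 from 107484852 to 107490482, KLF5 on chromosome 13 from 73054976 to 73077541, KLF6 on chromosome 10 from 3775996 to 3785281 and KLF7 on chromosome 2 from 207074137 to 207167267. In the repressor-type group, KLF9 lies on chromosome 9 from 70384597 to 70414624, KLF10 on chromosome 8 from 102648784 to 102655725, KLF11 on chromosome 2 from 10042849 to 10054836, KLF13 on chromosome 15 from 31326835 to 31435665 and KLF16 on chromosome 19 from 1852399 to 1863579. The 10 genes are thus scattered over the genome and share no neighbourhood, although 3 pairs share a chromosome. The exon reads of 9 genes were all uniquely mapped, and for KLF16 87.5% were, so its level may hold reads of similar sequence elsewhere.

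Levels were compared between genes as TPM, exon reads scaled by exon length. Over the 12 control libraries (PBS of both experiments, AA and water), KLF7, known for neurite outgrowth, was at a median of 63.2 TPM (39.0 to 71.2). KLF10, also called TIEG1 for its early induction by TGF-beta, was at 48.3 TPM (26.7 to 64.3) and KLF6, a broadly expressed family member, at 45.9 TPM (30.6 to 63.7). KLF13, a regulator of chemokine transcription in T cells, was at 39.4 TPM (23.6 to 46.6). These 4 genes formed the upper part of the order, with overlapping ranges.

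KLF16, described as a regulator of dopamine receptor promoters, was at a median of 33.0 TPM (8.41 to 43.4) and KLF11, or TIEG2, at 30.4 TPM (18.3 to 36.0). The other 4 genes were near the bottom: KLF5, which drives proliferation in epithelia, at 3.87 TPM (1.63 to 4.89), KLF2, the flow-responsive factor of endothelium, at 2.34 TPM (0.922 to 4.39), KLF4, a pluripotency and differentiation factor, at 2.08 TPM (0.909 to 4.76) and KLF9, a glucocorticoid and thyroid hormone target, at 1.18 TPM (0 to 3.16). Ranges of neighbours in this order overlapped except those of KLF11 and KLF5. The plot of levels by library gives each gene in every condition.

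**Figure D1:**
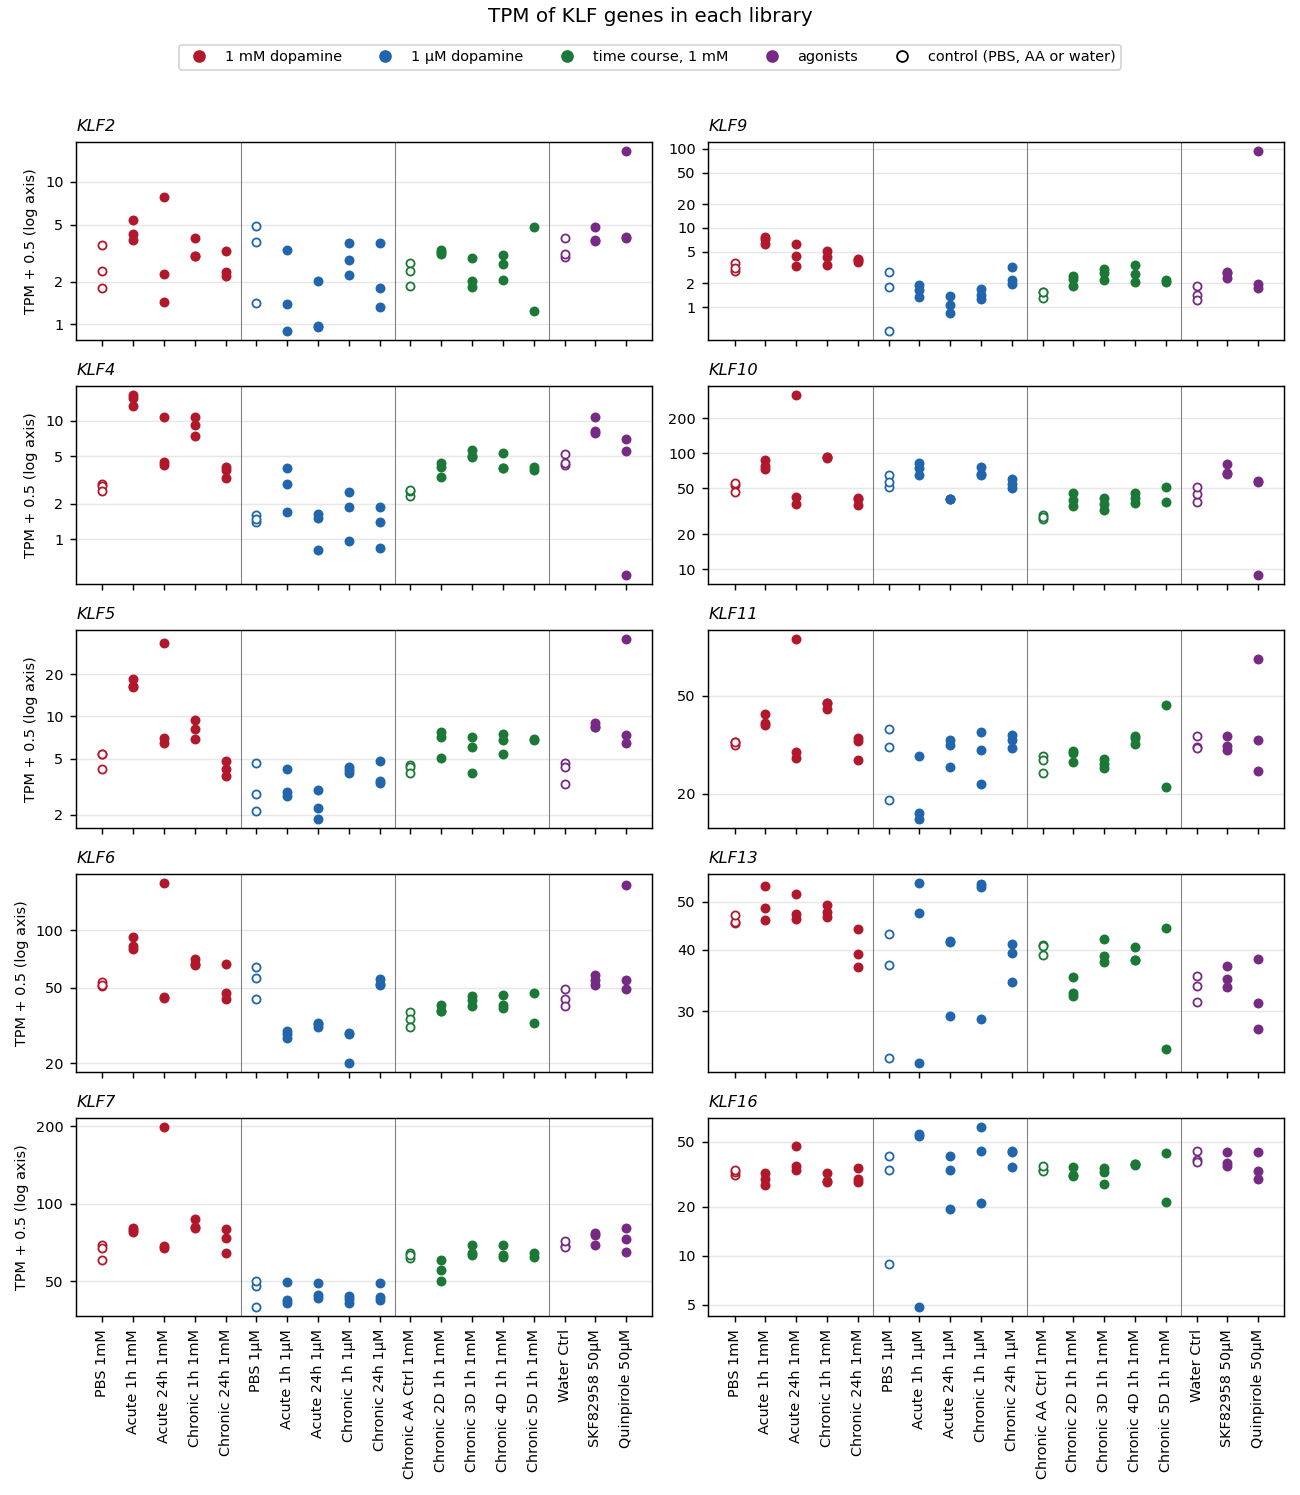
TPM (log axis, 0.5 added) of each of the 10 KLF genes in each of the 53 libraries, by condition, with control conditions as open points and treated conditions as filled points. KLF4 is highest at 1 mM Acute 1 h, at 12.9 to 16.0 TPM, and KLF16 runs from 4.34 to 55.3 TPM within 1 µM Acute 1 h.

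Exon reads per library ran from 137051 to 27702963 with a median of 11458465, so that the 4 scarce genes rest on few reads: KLF4 had 30 to 35 exon reads in the PBS libraries of the 1 mM experiment and KLF2 10 to 26. MAP2 (median 458 TPM) and BCL11B (45.1 TPM) were present, as were SOX2 (504 TPM), NES (444 TPM) and COL1A1 (30.5 TPM), so the cultures held neuronal, progenitor and fibroblast-type transcripts. The astrocyte markers S100B (median 30.6 TPM) and GFAP (13.0 TPM) were present too. Of the endothelial markers PECAM1 had a median of 0.0469 TPM and CLDN5 one of 8.66 TPM, of the microglia or blood markers AIF1 had 0 TPM and PTPRC 1.16 TPM, and the pluripotency gene POU5F1 had 0.336 TPM. Several libraries stood apart. Quinpirole replicate 1 had 137051 exon reads and 96.7% of its gene reads on introns, replicate 1 of 1 mM Acute 24 h had high levels of several KLF genes, replicate 2 of PBS, Acute 1 h and Chronic 1 h at 1 µM had low GC-rich genes, and the 2 libraries of 5 Day differed in the same way by less. KLF results that rest on them are given with and without them, and gene list counts with and without the first 2. GC-rich genes were also low at 1 µM in Acute 24 h replicate 1 (log2 -0.48 beside its other replicates) and Chronic 24 h replicate 3 (-0.36). These libraries were left out only in turn. In such bulk samples fewer cells of a type and less RNA per cell cannot be told apart.

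The promoters of the 4 genes that carry the largest changes below are shown because KLF4, KLF5 and KLF9 rose 1 h after 1 mM dopamine and KLF6 fell at 1 µM. Each is the 250 bases before a RefSeq start (GRCh38.p14), 5′ to 3′ on the strand of the gene: chr9:107489770-107490019 (minus) for KLF4, chr13:73058755-73059004 (plus, the second of 2 RefSeq starts) for KLF5, chr10:3785210-3785459 (minus) for KLF6 and chr9:70414658-70414907 (minus) for KLF9. Capitals mark TGACG, the core of the cAMP response element to which CREB binds, or CGTCA, the same core on the other strand.
KLF4: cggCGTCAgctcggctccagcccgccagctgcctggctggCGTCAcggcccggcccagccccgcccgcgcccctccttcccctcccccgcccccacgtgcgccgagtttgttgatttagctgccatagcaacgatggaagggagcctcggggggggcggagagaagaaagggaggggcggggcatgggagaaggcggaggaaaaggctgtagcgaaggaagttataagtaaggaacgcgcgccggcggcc
KLF5: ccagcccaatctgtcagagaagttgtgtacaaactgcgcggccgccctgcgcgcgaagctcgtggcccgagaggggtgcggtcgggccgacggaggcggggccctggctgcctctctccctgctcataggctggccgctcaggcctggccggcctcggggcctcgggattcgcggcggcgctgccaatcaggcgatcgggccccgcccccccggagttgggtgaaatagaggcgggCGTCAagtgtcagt
KLF6: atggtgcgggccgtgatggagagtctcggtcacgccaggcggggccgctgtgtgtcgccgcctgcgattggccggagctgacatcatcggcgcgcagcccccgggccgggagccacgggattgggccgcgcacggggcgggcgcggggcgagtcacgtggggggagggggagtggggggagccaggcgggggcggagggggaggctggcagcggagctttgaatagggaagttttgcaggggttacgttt
KLF9: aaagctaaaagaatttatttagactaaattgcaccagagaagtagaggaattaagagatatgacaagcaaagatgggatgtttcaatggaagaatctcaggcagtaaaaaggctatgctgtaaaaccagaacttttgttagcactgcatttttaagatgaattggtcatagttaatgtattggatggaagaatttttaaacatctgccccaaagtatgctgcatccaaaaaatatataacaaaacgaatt

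The KLF4 window held 2 such cores and the KLF5 window 1, while those of KLF6 and KLF9 held none in these letters. Of all 35116 RefSeq windows of the same length, 21.2% held the core on either strand. The GC box GGGCGG, counted on both strands, was found 4 times for KLF4, 2 times each for KLF5 and KLF6 and not for KLF9, and 42.6% of all windows held it. GC content was 69.2% for KLF4, 70.8% for KLF5, 72.4% for KLF6 and 32.4% for KLF9. The other KLF5 window, chr13:73054726-73054975, held 0 cores and 0 GC boxes and had 40.8% GC, so the KLF5 values depend on the start chosen. In all, 14 windows of 9 members, matched by symbol, were searched, and KLF10 was not searched. Among these 14 windows the full element TGACGTCA, in 1.65% of all windows, was found only in a KLF11 window. Its palindrome counts there as 2 overlapping cores. KLF16 had 2 cores and 7 GC boxes, and KLF13 1 core and 3 GC boxes. A match describes letters and is not a measured binding site.

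Fold changes and tests come from edgeR's quasi-likelihood test on exon reads, with p-values adjusted by Benjamini-Hochberg over all genes tested and a call at an adjusted p under 0.05. After 1 h of 1 mM dopamine, 3 of the 10 KLF genes rose over PBS, namely KLF4, KLF5 and KLF9, and none fell, where 8.04% of all genes tested were called higher. The median log2(fold change) of the 10 genes was 0.73, and that of all genes 0.01. KLF4 was the most responsive, at 2.45, 2.32 and 2.04 TPM in the PBS libraries and 16.0, 12.9 and 15.0 TPM after dopamine. Every treated library was several-fold above every control. Its log2(fold change) was 2.75 (SE 0.30, adjusted p = 0.00017).

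KLF5 was at 4.87, 4.89 and 3.73 TPM in PBS and 16.0, 15.6 and 17.9 TPM after dopamine, again without overlap. Its log2(fold change) was 1.94 (SE 0.47, adjusted p = 0.0146). This call was lost when PBS replicate 2 (adjusted p = 0.0520), PBS replicate 3 (adjusted p = 0.0581) or Acute 1 h replicate 3 (adjusted p = 0.0518) was left out of the edgeR fit. In the repressor-type group KLF9 went from 3.16, 2.39 and 2.65 TPM to 5.73, 6.71 and 7.14 TPM, with all treated libraries higher. Its log2(fold change) was 1.32 (SE 0.23, adjusted p = 0.0028). For KLF4 and KLF9 the call held whichever library was left out.

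The more abundant KLF6 and KLF10 were higher in every treated library but did not pass the test. KLF6 was at 52.9, 50.7 and 51.4 TPM in PBS and 91.6, 79.2 and 82.6 TPM after dopamine (log2(fold change) 0.77, SE 0.37, adjusted p = 0.168). KLF10 was at 52.4, 55.1 and 46.3 TPM and then at 86.4, 72.9 and 77.5 TPM (log2(fold change) 0.69, SE 0.54, adjusted p = 0.42). Their standard errors came from a spread shared by all 5 conditions of the experiment, 1 library of which is set out next. Values for KLF2 (0.99, SE 0.54), KLF7 (0.33, SE 0.27), KLF11 (0.37, SE 0.28), KLF13 (0.17, SE 0.08) and KLF16 (-0.06, SE 0.12) did not pass either.

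Replicate 1 of 1 mM Acute 24 h was the highest of its group for all 10 genes, and set apart most for KLF10. KLF10 was at 317, 35.9 and 41.7 TPM in the 3 Acute 24 h libraries, KLF6 at 177, 43.6 and 44.2 TPM, KLF7 at 198, 66.8 and 67.6 TPM and KLF5 at 32.9, 6.49 and 5.99 TPM. Against the PBS mean, the KLF10 level of the first library was 6.18-fold and those of the others 0.701-fold and 0.814-fold, so the libraries lie on opposite sides of the control. The plot of the Acute 24 h libraries shows the same split for KLF2, KLF6 and KLF11, while KLF13 ran only from 1.01-fold to 1.13-fold.

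**Figure D2:**
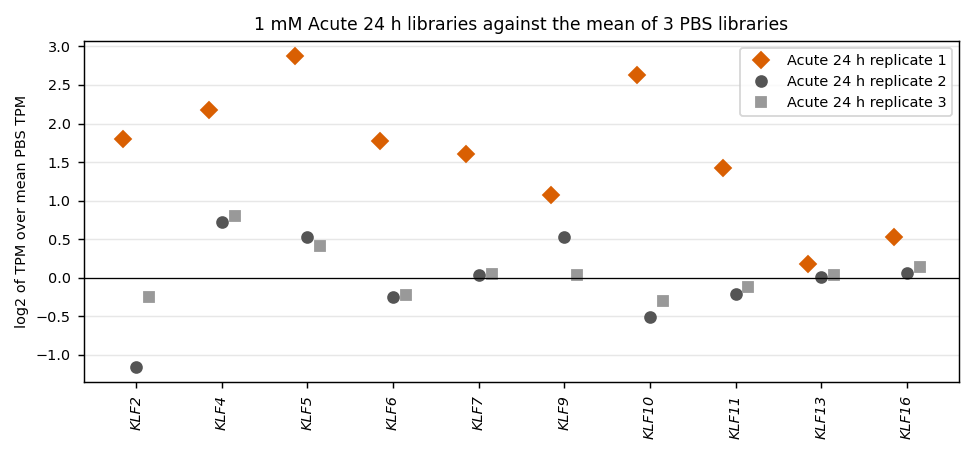
log2 of the TPM of each KLF gene over its mean in the 3 PBS libraries, for the 3 libraries of 1 mM Acute 24 h, with 0 as the PBS mean. Replicate 1 is the highest point for all 10 genes, and replicates 2 and 3 lie below the PBS mean for KLF2, KLF6, KLF10 and KLF11.

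With that library out of the fit, 8 of the 10 genes were called higher at Acute 1 h, against a background of 19.9% of genes called higher. KLF10 was then up by 0.67 on the log2 scale (SE 0.08, adjusted p = 2.66e-05), KLF6 by 0.76 (SE 0.12, adjusted p = 0.000194) and KLF4 by 2.73 (SE 0.18, adjusted p = 4.9e-08). The fold changes moved little and the standard errors shrank. KLF13 (0.16, adjusted p = 0.0758) and KLF16 (-0.08, adjusted p = 0.554) were the pair not called. Among cell type markers, the summed level of 7 fibroblast markers was 91.9 to 96.0 TPM at Acute 1 h and 83.9 to 116 TPM in PBS, that of 6 endothelial markers 14.2 to 15.3 and 12.8 to 25.1 TPM, and that of 4 progenitor markers 1106 to 1220 and 978 to 1057 TPM. That of 4 astrocyte markers was 38.9 to 41.7 and 32.2 to 34.8 TPM. The progenitor and astrocyte sums did not overlap between the groups, and their part in the KLF values was not tested.

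At 24 h after the acute 1 mM dose, KLF4 and KLF5 were called higher than PBS among all 3 libraries, with 8.38% of genes called higher. KLF4 was at 10.3, 3.75 and 3.96 TPM (log2(fold change) 1.21, SE 0.30, adjusted p = 0.0218) and KLF5 had a value of 1.54 (SE 0.47, adjusted p = 0.0426). Leaving out any PBS library ended both calls, with adjusted p up to 0.122. Without Acute 24 h replicate 1, KLF4 stayed above PBS (0.71, SE 0.21, adjusted p = 0.0246), KLF5 was not called (0.42, adjusted p = 0.104) and KLF10 was called lower (-0.45, SE 0.09, adjusted p = 0.00466), where 22.3% of genes were called in either direction. The direction for KLF10 therefore turned on 1 library, its value with all 3 being 1.14 (SE 0.54, adjusted p = 0.154). Summed progenitor markers were 1129 to 1355 TPM at Acute 24 h and 978 to 1057 TPM in PBS, and endothelial markers 2.91 to 12.7 and 12.8 to 25.1 TPM. These sums did not overlap between the groups, while the neuron, fibroblast and astrocyte sums did. Their part in the KLF values was not tested.

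Between 1 h and 24 h after the acute dose, KLF4 fell by 1.54 on the log2 scale (SE 0.28, adjusted p = 0.0143), the only member called where 1.38% of genes were called lower. This call was lost without Acute 1 h replicate 1 (adjusted p = 0.0657) or replicate 3 (adjusted p = 0.0625). With Acute 24 h replicate 1 left out, 8 members were called lower at 24 h than at 1 h, against 4.08% of genes. The values then ran from -2.02 for KLF4 (SE 0.19) and -1.65 for KLF2 (SE 0.40) through -1.12 for KLF10 (SE 0.10) and -1.05 for KLF6 (SE 0.14) to -0.32 for KLF7 (SE 0.08). KLF13 (-0.18, adjusted p = 0.138) and KLF16 (0.12, adjusted p = 0.519) were not called.

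After 5 daily doses of 1 mM, KLF4 was the only member called higher 1 h after the last dose (1.27% of genes called higher). It was at 8.78, 10.2 and 6.87 TPM, between the PBS and the Acute 1 h levels in every library. Its log2(fold change) was 1.88 (SE 0.30, adjusted p = 0.00708). KLF10 was at 90.7, 91.8 and 92.3 TPM, above all PBS and all Acute 1 h libraries, with a value of 0.80 (SE 0.54, adjusted p = 0.518). KLF11 was at 46.1, 43.7 and 46.4 TPM against 31.8, 31.1 and 32.0 TPM in PBS (0.48, SE 0.27, adjusted p = 0.428).

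In the fit without Acute 24 h replicate 1, 5 members were called higher at Chronic 1 h, where 9.25% of genes were: KLF4 (1.88, SE 0.18), KLF10 (0.79, SE 0.08, adjusted p = 1.41e-05), KLF5 (0.73, SE 0.16), KLF11 (0.48, SE 0.08, adjusted p = 0.00076) and KLF7 (0.30, SE 0.08). The TGF-beta inducible pair KLF10 and KLF11 were thus higher after both the first and the last dose in this fit, as were KLF4, KLF5 and KLF7. Summed astrocyte markers were 59.4 to 66.9 TPM at Chronic 1 h and 32.2 to 34.8 TPM in PBS, and their part in these values was not tested.

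The comparison of Chronic 1 h with Acute 1 h asks whether the response to a dose had changed after repeated dosing, and it is confounded with the day of extraction. KLF9 was lower after chronic than after acute dosing, at 2.89, 3.84 and 4.67 TPM against 5.73, 6.71 and 7.14 TPM (log2(fold change) -0.89, SE 0.23, adjusted p = 0.023), with 5.91% of genes called lower. It was lost when Acute 1 h replicate 2 or 3 or Chronic 1 h replicate 1 or 2 was left out (adjusted p up to 0.104). KLF4 had a value of -0.87 (SE 0.27, adjusted p = 0.0549) and KLF5 of -1.21 (SE 0.45, adjusted p = 0.101). Without Acute 24 h replicate 1, KLF4 (-0.86), KLF5 (-1.19), KLF6 (-0.42) and KLF9 (-0.87) were all called lower, against 16.6% of genes, while KLF10 (0.12, adjusted p = 0.261) and KLF11 (0.12, adjusted p = 0.256) were not called. In that fit 4 members were thus lower after the last chronic dose than after the acute dose.

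**Figure D3:**
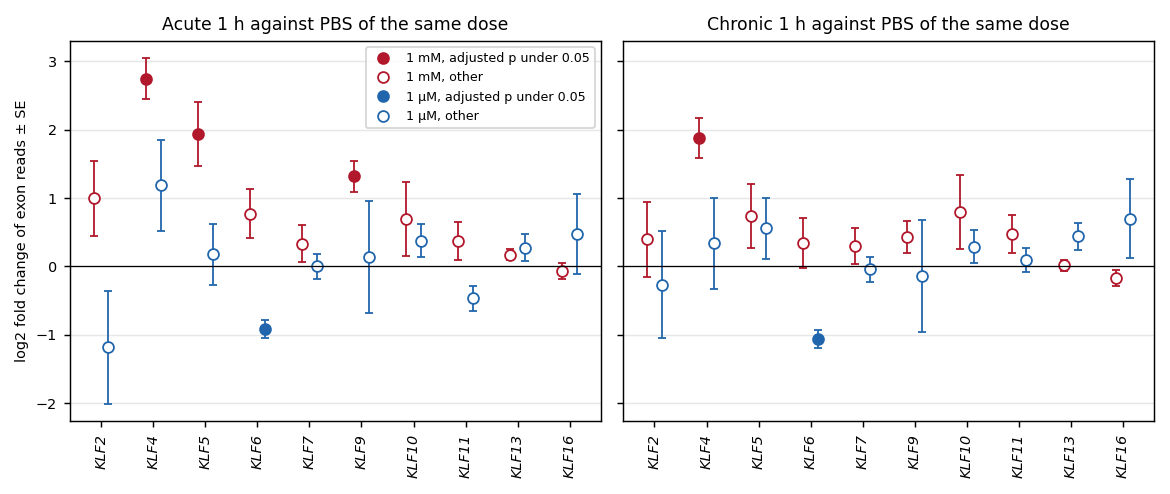
log2(fold change) over PBS with its SE for each KLF gene at Acute 1 h and Chronic 1 h, at 1 mM and at 1 µM, with filled points for an adjusted p under 0.05. At 1 mM, KLF4 is at 2.75 after the acute and 1.88 after the chronic dosing, and at 1 µM KLF6 is the member called, below 0 in both.

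At 24 h after the last chronic dose no member was called at 1 mM by edgeR, where 0.663% of genes were. At an unadjusted p under 0.05, 1 member and 1921 genes passed, and DESeq2 called 0 members. KLF10 was at 40.0, 40.8 and 35.0 TPM, below every PBS library, and with Acute 24 h replicate 1 left out it was called lower (-0.44, SE 0.09, adjusted p = 0.00655), as was KLF13 (-0.23, adjusted p = 0.0486), against 5.42% of genes called lower. KLF4 was at 2.80, 3.35 and 3.60 TPM, slightly above PBS, with a value of 0.49 (SE 0.31, adjusted p = 0.65).

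Reads on introns, which come mostly from unspliced transcripts, were tested in the same way. At 1 mM Acute 1 h, 7 of the 9 members with enough intron reads were called higher, against 23.1% of all genes. KLF6 had 39, 35 and 25 intron reads in PBS and 95, 55 and 86 after dopamine, from libraries with a smaller intron share (12.3 to 13.2% against 19.5 to 21.8% in PBS). Its log2(fold change) in intron reads was 2.56 (SE 0.30, adjusted p = 3.53e-05), larger in size than in exon reads. KLF5 had 27, 41 and 19 intron reads in PBS and 86, 74 and 75 after dopamine (2.76, SE 0.38, adjusted p = 0.00011).

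For KLF10 the counts were small, 9, 12 and 15 in PBS and 36, 15 and 27 after dopamine (2.40, SE 0.63, adjusted p = 0.00632). KLF7 showed how the scaling enters: it had 284, 354 and 295 intron reads in PBS and 286, 287 and 295 after dopamine, raw counts that overlap, and a value of 1.21 (SE 0.16, adjusted p = 6.77e-05) once scaled to each library's intron total. KLF9 went the other way from its exon reads, with 15, 29 and 22 intron reads in PBS and 4, 5 and 10 after dopamine (-0.48, SE 0.48, adjusted p = 0.418). Its rise was thus seen in exon reads alone. For KLF11 the raw counts were lower after dopamine, 42 to 53 against 57 to 77 in PBS, yet it was called higher (0.84, SE 0.22, adjusted p = 0.00585). KLF16, also called higher (0.93, SE 0.28, adjusted p = 0.0150), had 31 to 47 intron reads in PBS and 25 to 35 after dopamine. Because intron totals fell at Acute 1 h, all intron values of that condition depend on the scaling.

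At Chronic 1 h the intron share was close to that of PBS (20.6 to 20.9%), and KLF6 and KLF7 were called higher in intron reads, where 1.27% of genes were. KLF6 had 121, 126 and 110 intron reads (1.83, SE 0.30, adjusted p = 0.00476) and KLF7 578, 556 and 582 (0.86, SE 0.15, adjusted p = 0.00752), in both cases above every PBS library. Relative to Acute 1 h, KLF4 (-1.14), KLF5 (-1.91) and KLF6 (-0.73) were called lower in intron reads, against 16.8% of genes.

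At 1 µM dopamine KLF6 was the only member called in the comparisons with PBS, and it fell. It was at 63.7, 43.3 and 55.6 TPM in PBS, 29.1, 26.7 and 28.1 TPM at Acute 1 h, 31.6, 30.6 and 32.0 TPM at Acute 24 h, 27.9, 19.5 and 28.4 TPM at Chronic 1 h and 52.0, 51.1 and 55.1 TPM at Chronic 24 h. The first 3 dopamine conditions lay wholly below PBS, and Chronic 24 h lay within its range. The log2(fold change) was -0.91 at Acute 1 h (SE 0.13, adjusted p = 0.000908), where 2.52% of genes were called lower, -0.82 at Acute 24 h (SE 0.13, adjusted p = 0.00399), where 1.91% were, and -1.06 at Chronic 1 h (SE 0.13, adjusted p = 0.000766), where 0.834% were. Summed over 11 striatal-type neuron markers, the level was 451 to 476 TPM in PBS, 422 to 515 TPM at Acute 1 h, 467 to 511 TPM at Acute 24 h and 346 to 374 TPM at Chronic 1 h. The 4 progenitor markers summed to 1177 to 1420 TPM in PBS, 1184 to 1634 TPM at Acute 1 h, 1489 to 1676 TPM at Acute 24 h and 1152 to 1249 TPM at Chronic 1 h. The neuron sum at Chronic 1 h and the progenitor sum at Acute 24 h thus did not overlap with PBS, and their part in the KLF6 values was not tested.

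At Chronic 24 h KLF6 had a value of -0.06 (SE 0.13, adjusted p = 0.903), and no member was called by edgeR, as no gene was (0%). At an unadjusted p under 0.05, 608 genes but 0 members passed, and DESeq2 called 1 gene and 0 members. Leaving out any library kept the 3 KLF6 calls. At Acute 1 h, a fit of these 2 conditions alone gave -0.92 with an adjusted p of 0.0968, and intron reads gave 0.61 (SE 0.73, adjusted p = 0.598).

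KLF4, the most responsive gene at 1 mM, was at 1.12, 0.91 and 0.99 TPM in PBS and 2.43, 1.21 and 3.47 TPM at 1 µM Acute 1 h, from 9 to 11 and 11 to 28 exon reads. All 3 treated libraries were higher, but the difference did not pass the test (1.19, SE 0.67, adjusted p = 0.348). KLF9 was at 1.29, 0 and 2.26 TPM in PBS, with no exon read in replicate 2. KLF5 was at 4.15, 1.63 and 2.30 TPM in PBS and 2.42, 3.72 and 2.22 TPM at Acute 1 h, with full overlap.

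KLF16 and KLF13 differed widely between replicates of some conditions at 1 µM. KLF16 was at 40.1, 8.41 and 33.1 TPM in PBS, 53.2, 4.34 and 55.3 TPM at Acute 1 h and 43.4, 20.4 and 60.8 TPM at Chronic 1 h. Replicate 2 was the lowest of each of those conditions. The 1291 expressed genes of highest GC content, beside their level in the other replicates, were at a median log2 of -0.90, -1.41 and -0.88 in the same 3 libraries. KLF16, with 67.8% GC, is at the 99.1 percentile of expressed genes for GC content. KLF13, with 57.7% GC, was at 42.5, 23.6 and 36.7 TPM in PBS and 46.9, 23.0 and 54.1 TPM at Acute 1 h. Whether base composition accounts for these levels was not tested. KLF6, with 45.7% GC, ran from 26.7 to 29.1 TPM over the same Acute 1 h libraries.

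**Figure D4:**
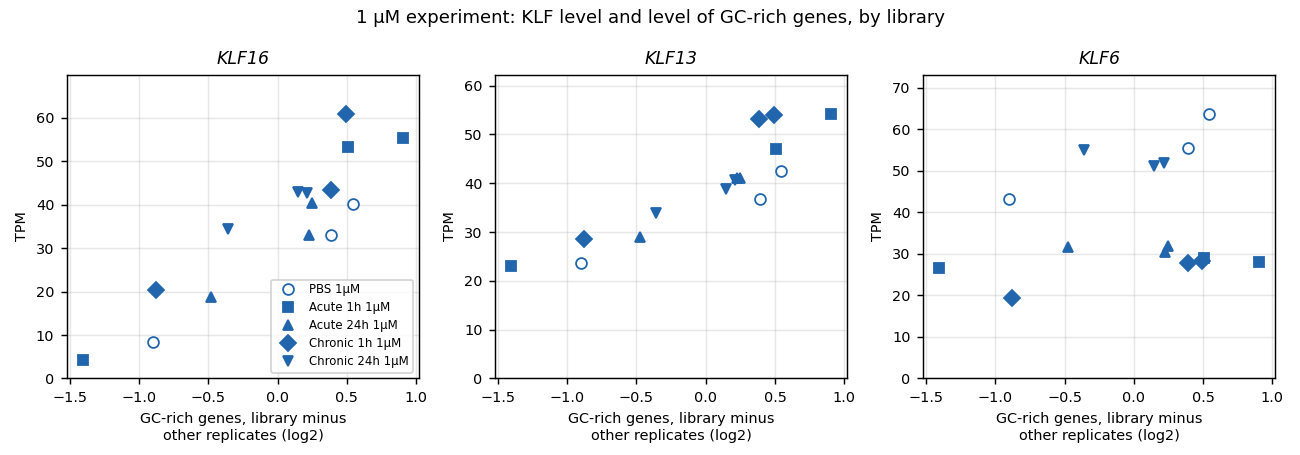
TPM of KLF16, KLF13 and KLF6 in the 15 libraries of the 1 µM experiment against the median log2 difference of the GC-richest genes from the other replicates of the condition. KLF16 runs from 4.34 to 60.8 TPM and is lowest where GC-rich genes are at log2 -1.41, while KLF6 is at 43.3 to 63.7 TPM in PBS and Chronic 24 h and at 19.5 to 32.0 TPM in the other 3 conditions.

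With replicate 2 of PBS, Acute 1 h and Chronic 1 h left out, an alternative chosen after seeing the data, KLF6 was still called lower at Acute 1 h (-1.01, adjusted p = 0.000225), Acute 24 h (-0.82, adjusted p = 0.000567) and Chronic 1 h (-1.01, adjusted p = 0.000496). KLF13 was then called higher at Acute 1 h (0.40, adjusted p = 0.0313) and Chronic 1 h (0.50, adjusted p = 0.0136). With all libraries KLF13 had values of 0.27 (SE 0.19, adjusted p = 0.475) and 0.44 (SE 0.19, adjusted p = 0.304). On intron reads with all libraries, edgeR called KLF13 higher at Acute 1 h (1.56, SE 0.27, adjusted p = 0.00134), where 3.76% of genes were. It was called higher at Chronic 1 h too (1.24, SE 0.27, adjusted p = 0.00871), where 2.59% were. Its intron reads were 47 to 50 in PBS, 109 to 164 at Acute 1 h and 74 to 93 at Chronic 1 h.

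Neither remaining 1 µM comparison had a call. Between Chronic 1 h and Acute 1 h edgeR called 0 members, where 1.2% of genes were called, and 1 member passed at an unadjusted p under 0.05. Between Acute 24 h and Acute 1 h it again called 0 members (0.592% of genes), 3 passed unadjusted and DESeq2 called 1. KLF10 was at 64.6, 82.5 and 74.5 TPM at Acute 1 h and 40.0, 39.8 and 40.0 TPM at Acute 24 h, without overlap, with a value of -0.97 (SE 0.24, adjusted p = 0.0959). Without those replicate 2 libraries KLF10 was called (-0.74, adjusted p = 0.00377), and so were KLF13 (-0.40, adjusted p = 0.0359) and KLF16 (-0.78, adjusted p = 0.0315). That fit kept Acute 24 h replicate 1, whose GC-rich genes were at log2 -0.48 beside the other replicates. KLF16 ran from 18.9 to 40.4 TPM at Acute 24 h. The part of this library in the KLF13 and KLF16 calls was not tested, and the share of all genes called is not given.

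The difference between doses was tested as an interaction over both experiments, whose own PBS libraries served as controls. KLF6 had a response at Acute 1 h that was 1.71 higher on the log2 scale at 1 mM than at 1 µM (SE 0.39, adjusted p = 0.022), with 1.09% of genes called higher. It was the only member called, and every 1 mM treated library moved up and every 1 µM treated library down from its PBS mean. Leaving out libraries in turn moved the adjusted p between 0.0257 and 0.0644, and the call was lost without PBS replicate 1, 2 or 3 or Acute 1 h replicate 1 or 3 at 1 mM. With Acute 24 h replicate 1 out, KLF5 (1.80, adjusted p = 0.0139) and KLF11 (0.86, adjusted p = 0.0140) were called besides. The experiments differ in more than dose, since they were separate sets of cultures and libraries.

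At Chronic 1 h the dose difference was called for 0 members by edgeR (0.087% of genes), with 2 members at an unadjusted p under 0.05 and 0 by DESeq2. KLF6 had a difference of 1.38 (SE 0.39, adjusted p = 0.216), which reached an adjusted p of 0.000146 without Acute 24 h replicate 1.

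In the time course, 4 members, KLF4, KLF6, KLF9 and KLF10, made up all calls against the ascorbic acid control, and all were higher. At 2 Day KLF4, KLF6 and KLF10 were called, where 1.89% of genes were called higher. At 3 Day and 4 Day KLF9 joined them, with 4.77% and 2.58% of genes. At 5 Day KLF6 and KLF10 were called, with 1.23% of genes. The plot of the time course shows each library of these conditions.

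**Figure D5:**
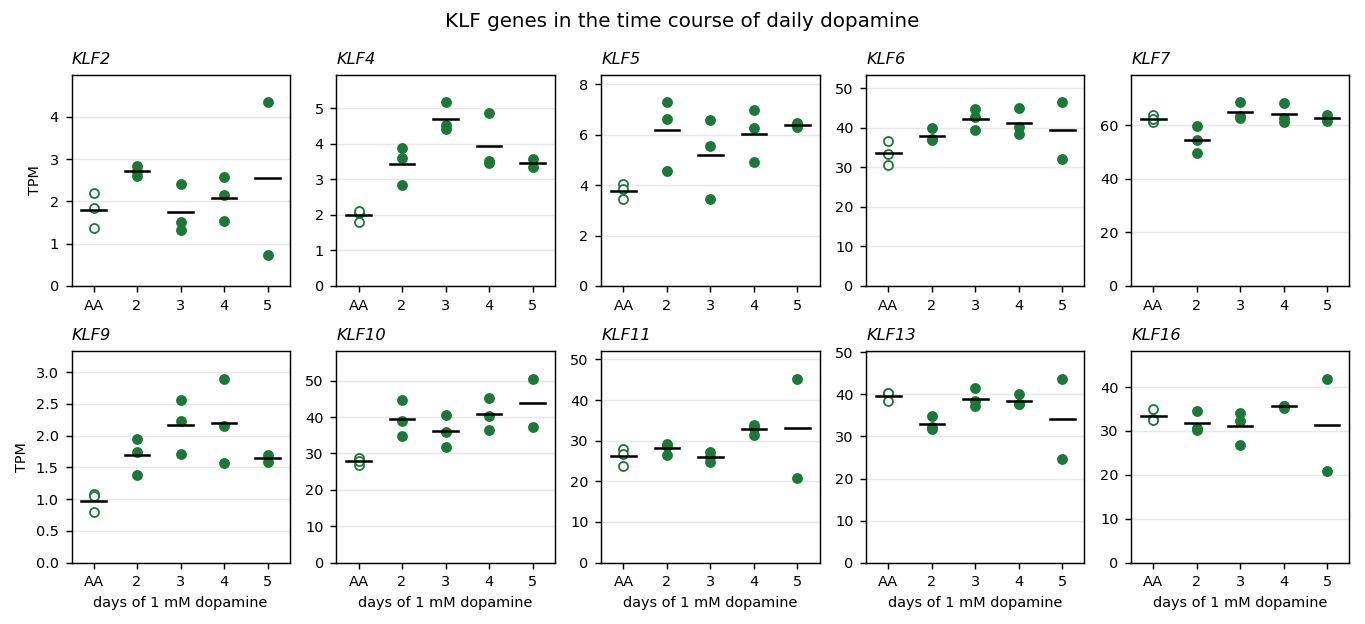
TPM of the KLF genes in each library of the time course, from the ascorbic acid control (AA) to 5 Day, with bars at the means of 3 libraries (2 at 5 Day). KLF10 is above the 3 control libraries, 26.7 to 28.8 TPM, in every dopamine library, and the 2 libraries of 5 Day lie far apart for KLF11, KLF13 and KLF16.

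KLF10 was at 26.7, 28.8 and 27.8 TPM in AA, 34.9, 44.7 and 38.8 TPM at 2 Day, 36.0, 31.8 and 40.4 TPM at 3 Day, 40.4, 36.5 and 45.2 TPM at 4 Day and 37.2 and 50.6 TPM at 5 Day. No dopamine library fell to the control range. The log2(fold change) was 0.65 (SE 0.11, adjusted p = 0.00578), 0.47 (SE 0.11, adjusted p = 0.0189), 0.58 (SE 0.11, adjusted p = 0.0104) and 0.78 (SE 0.12, adjusted p = 0.00657) from 2 Day to 5 Day. KLF6 was smaller in change, at 36.8, 33.5 and 30.6 TPM in AA and 42.7, 39.5 and 44.7 TPM at 3 Day (0.43, SE 0.07, adjusted p = 0.00282). Its other values were 0.31 at 2 Day, 0.32 at 4 Day and 0.34 at 5 Day. At 5 Day the 2 libraries had 32.2 and 46.5 TPM of KLF6, the lower within the AA range of 30.6 to 36.8 TPM.

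KLF4 was at 1.80, 2.05 and 2.12 TPM in AA and 4.52, 5.17 and 4.41 TPM at 3 Day, its highest condition (1.34, SE 0.23, adjusted p = 0.00285). It had values of 0.93 at 2 Day (SE 0.23, adjusted p = 0.0379), 1.00 at 4 Day (SE 0.23, adjusted p = 0.0245) and 0.93 at 5 Day (SE 0.26, adjusted p = 0.0937). KLF9 was at 0.80, 1.07 and 1.06 TPM in AA and 2.23, 1.71 and 2.56 TPM at 3 Day (1.24, SE 0.29, adjusted p = 0.0157). At 4 Day it was at 1.58, 2.15 and 2.90 TPM (1.21, SE 0.29, adjusted p = 0.0269). Every one of these libraries was above the controls.

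The calls for KLF10 at 2 and 5 Day and for KLF4 and KLF6 at 3 Day held whichever library was left out, and each of the others was lost at least once. The count of members called dropped to 1 at 2 Day without AA replicate 2 or 3 or 2 Day replicate 1 or 2, to 2 at 3 Day without AA replicate 1 or 2 or 3 Day replicate 3, to 1 or 2 at 4 Day whichever AA or 4 Day library was left out, and to 1 at 5 Day without any AA library. Summed fibroblast markers were 229 to 469 TPM over the dopamine libraries and 184 to 240 TPM in AA. Summed astrocyte markers were 69.8 to 107 TPM at 2 Day and 91.5 to 115 TPM from 3 Day to 5 Day, against 55.7 to 71.4 TPM in AA. Summed progenitor markers were 838 to 1075 TPM over 2, 4 and 5 Day and 1069 to 1137 TPM at 3 Day, against 1124 to 1174 TPM in AA. Summed striatal-type neuron markers were 445 to 572 TPM at 2 Day against 599 to 635 TPM in AA, and overlapped with AA at the later times. Summed endothelial markers were 10.7 to 20.0 TPM at 2 Day and 9.47 to 12.4 TPM at 4 Day against 5.27 to 9.22 TPM in AA, and overlapped at 3 Day and 5 Day. The part of these markers in the KLF values was not tested. Between 5 Day and 3 Day edgeR called 0 members (1.16% of genes), 2 passed at an unadjusted p under 0.05 and DESeq2 called 0.

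Cells given 5 daily doses of 1 mM were measured 1 h after the last dose in both experiments, against PBS in the first and ascorbic acid in the time course. The values of KLF10 were 0.80 (SE 0.54) and 0.78 (SE 0.12). KLF4 had 1.88 (SE 0.30) and 0.93 (SE 0.26), KLF5 0.73 (SE 0.47) and 0.89 (SE 0.28), and KLF6 0.34 (SE 0.36) and 0.34 (SE 0.08). All 4 were positive in both, and the difference between the experiments was not tested. At 5 Day, KLF11 was at 20.8 and 45.3 TPM and KLF16 at 20.8 and 41.9 TPM, wider apart than the 3 libraries of any other time-course condition, and GC-rich genes of these 2 libraries differed from each other as well (log2 -0.36 and 0.36 relative to the other).

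Among the agonists, edgeR called 0 members for SKF82958 over water (0.0124% of genes), and 3 members and 185 genes passed at an unadjusted p under 0.05, with 0 members by DESeq2. Their levels were separate between the groups. KLF4 was at 3.71, 3.89 and 4.76 TPM in water and 10.2, 7.38 and 7.61 TPM after SKF82958. KLF5 was at 2.79, 4.13 and 3.89 TPM in water and 7.89, 7.90 and 8.46 TPM after it. KLF10 was at 37.7, 44.3 and 50.8 TPM and then at 65.3, 67.0 and 80.3 TPM. Each of these 3 genes was higher in every SKF82958 library than in every water library.

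When quinpirole replicate 1, which belongs to the third condition of this fit, was left out, those 3 members were called: KLF4 at 0.95 (SE 0.18, adjusted p = 0.0204), KLF5 at 1.09 (SE 0.19, adjusted p = 0.0132) and KLF10 at 0.60 (SE 0.11, adjusted p = 0.0132), against 0.612% of genes called higher. With it in the fit the same fold changes had SEs of 0.38, 0.34 and 0.22. This alternative was chosen after seeing the data. Summed fibroblast markers were 263 to 339 TPM after SKF82958 and 215 to 224 TPM in water, astrocyte markers 110 to 121 and 89.6 to 107 TPM, and progenitor markers 744 to 849 and 688 to 758 TPM. The fibroblast and astrocyte sums did not overlap, and the part of these markers was not tested.

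For quinpirole over water edgeR called 0 members (0% of genes) with all 3 libraries, 2 members and 350 genes passed at an unadjusted p under 0.05, and DESeq2 called 0 members. In quinpirole replicate 1, KLF4 had 0 exon reads, KLF10 1 and KLF9 15, so that its 93.4 TPM for KLF9 rests on 15 reads. The other 2 quinpirole libraries had 1.25 and 1.45 TPM of KLF9. Without replicate 1, 0 members and 0.184% of genes were called, and KLF5, at 6.86 and 6.03 TPM in the other 2 libraries, had a value of 0.91 (SE 0.22, adjusted p = 0.265). Between SKF82958 and quinpirole no gene was called with or without that library (0% in both), and 242 genes but 0 members passed at an unadjusted p under 0.05. KLF4 had a difference of 0.42 (SE 0.20) and KLF10 of 0.18 (SE 0.12) without it, toward SKF82958. A p that misses the threshold does not show that the agonists acted alike.

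Other genes of the family and its pathways were taken from lists. Of the other 17 KLF and SP genes, 12 were tested at 1 mM, and at Acute 1 h 4 rose and 1 fell, where 8.04% of all genes were called higher and 7.94% lower. SP5, a Wnt target, rose by 2.45, SP9 and SP8, regulators of striatal and forebrain neuron development, by 1.00 and 0.99, and KLF15 by 0.50, while KLF8, a CtBP-binding repressor, had -1.06. With all libraries, KLF15 was the 1 call at Chronic 1 h (0.69), where 1.27% of genes were called higher, and SP5 (-2.38), SP9 (-1.01) and KLF12 (-0.30) were lower than at Acute 1 h, as were 5.91% of genes. At 1 µM, where 10 were tested, KLF8 at Acute 24 h was the only call (-1.26). The median of the 12 genes at 1 mM Acute 1 h was 0.30. In the fit without Acute 24 h replicate 1, 7 rose and 1 fell at Acute 1 h, where 19.9% of genes were called in each direction, 2 rose and 2 fell at Chronic 1 h, where 9.25% were called higher and 9.1% lower, and 4 were lower at Chronic 1 h than at Acute 1 h, where 16.6% were.

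Of 12 KLF cofactors, 1 fell and none rose at 1 mM Acute 1 h, namely SAP30, a SIN3A complex subunit (-0.39), a share close to the 7.94% of all genes called lower. SAP30 was lower at Chronic 1 h too (-0.64), with the deacetylase HDAC1 (-0.70), where 0.814% of genes were. Without Acute 24 h replicate 1, 2 fell at Acute 1 h, where 19.9% of genes did. At Chronic 1 h 4 then fell and 1 rose, where 9.1% of genes were called lower and 9.25% higher. No cofactor was called in the 1 µM comparisons. Of 6 genes of the MEK5-ERK5-MEF2 pathway, which induces KLF2 and KLF4 in endothelium, MEF2C fell at Acute 1 h at both doses (-1.43 at 1 mM, -1.38 at 1 µM) and MAP2K5, the gene of MEK5, at 1 µM (-0.91). None of the 6 rose at Acute 1 h at either dose, and 7.94% of genes were called lower at 1 mM and 2.52% at 1 µM. At 1 mM Acute 1 h, 2 of the 6 fell without Acute 24 h replicate 1, where 19.9% of genes did.

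TGF-beta early genes, the class to which KLF10 and KLF11 belong, moved in larger number. Of 14 tested at 1 mM Acute 1 h, 6 rose and none fell, beside 8.04% of all genes called higher, with a median of 1.06. CCN2 rose by 4.82, ID3 by 2.15, ID1 by 1.95, BAMBI by 1.61, TGIF1 by 1.20 and SMAD6 by 1.06. At Chronic 1 h 2 were called, TGIF1 (0.81) and BAMBI (0.99), beside 1.27% of genes called higher, and 4 were lower than at Acute 1 h, beside 5.91%. Without Acute 24 h replicate 1 these counts were 11 higher at Acute 1 h (19.9% of genes), 5 higher at Chronic 1 h (9.25%) and 9 lower at Chronic 1 h than at Acute 1 h (16.6%). At 1 µM Acute 1 h 6 rose, with ID1 at 2.33 and SMAD7 at 1.83, and TGFB1 fell (-1.59), where 3.25% of genes were called higher and 2.52% lower. In the time course 5, 7, 5 and 3 rose from 2 Day to 5 Day, with CCN2 at 3.14 at 3 Day, where 1.89%, 4.77%, 2.58% and 1.23% of genes were called higher. With all libraries no gene of this list was called for the agonists. Without quinpirole replicate 1, 3 were higher for SKF82958 (0.612% of genes) and 2 for quinpirole (0.184%).

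Of 7 glucocorticoid-responsive genes, the class that holds KLF9, 3 rose at 1 mM Acute 1 h: ERRFI1 (1.39), SGK1 (0.66) and TSC22D3 (0.47), beside 8.04% of genes. Without Acute 24 h replicate 1, 3 rose and 1 fell at Acute 1 h, where 19.9% of genes were called in each direction. Without quinpirole replicate 1, 2 were higher for SKF82958, where 0.612% of genes were. In the time course 2 of the 7 rose and none fell at each time from 2 Day to 5 Day. The shares of genes called higher were 1.89%, 4.77%, 2.58% and 1.23%. PER1, a clock gene, was among the 2 each time (0.61, 0.41, 0.69 and 0.47), and FKBP5 and NR3C1 never were. At 1 µM, 1 of the 7 rose at Acute 1 h and 2 at Chronic 1 h, where 3.25% and 1.75% of genes did. NR3C1 fell at 1 µM Acute 24 h (-1.45), where 1.91% of genes did. Of 12 genes named as KLF targets, 10 were tested at 1 mM, and CCND1 (1.10) and THBD (1.28) rose at Acute 1 h, beside 8.04% of genes. Without Acute 24 h replicate 1, 11 were tested, of which 3 rose and 1 fell, where 19.9% of genes were called in each direction. At 1 µM Acute 1 h, where 7 were tested, CDKN1C (1.39) and CCND1 (0.84) rose and TXNIP (-2.88) and L1CAM (-0.76) fell, where 3.25% of genes were called higher and 2.52% lower. With all libraries CCND1, which encodes cyclin D1, was thus the only gene of this list called higher at Acute 1 h at both doses.

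As a description, the log2 CPM of each member over all 53 libraries, centred on each experiment, was correlated with the 15485 genes tested in all experiments. Libraries of 1 condition share treatment and depth, and r is given without the quinpirole and Acute 24 h libraries that stand apart (51 libraries) after the value for all 53. KLF4 was most like ATF3 (r = 0.94 and 0.92) and GADD45B (0.92 and 0.87), both stress-response genes. KLF10 was most like FILIP1L (0.91 and 0.81) and TRIB1 (0.91 and 0.79), and KLF5 like TUFT1 (0.81 and 0.77) and MYADM (0.81 and 0.84). KLF16 was most like PIAS4 (0.90 and 0.91) and ILVBL (0.89 and 0.90), and KLF13 like MIDN (0.86 and 0.88) and ZNF316 (0.81 and 0.80). KLF6 went with OTUD1 (0.80 and 0.64) and SPRY1 (0.76 and 0.55), and KLF11 with PRKAB1 (0.80 and 0.67) and GABRB1 (0.75 and 0.67). KLF7 went with TLK2 (0.82 and 0.50) and RND3 (0.82 and 0.56), KLF9 with TENT5C (0.87 and 0.66) and MARC1 (0.86 and 0.62), and KLF2 with SPSB1 (0.67 and 0.53) and RAB11FIP1 (0.65 and 0.52), so that these values rested in part on the 2 libraries.

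Among the members themselves, KLF13 and KLF16 had r = 0.74 over 53 and 0.75 over 51 libraries. KLF4 and KLF10 had 0.75 and 0.65. KLF5 and KLF10 had 0.27 over all libraries and 0.70 without the 2, and KLF4 and KLF5 went from 0.19 to 0.66, so these values rested on the libraries included.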

How the data were processed

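Per the paper's methods, the authors trimmed reads and mapped them in CLC Genomics Workbench to GRCh38 (hg38 in the submitters' processing notes) with an Ensembl annotation, and deposited a table per library with counts of reads on exons, on introns and in total for each of 60676 genes. The deposited TPM values are exon reads scaled by exon length and library. Strand is not given in the sources used here, so antisense and overlapping genes cannot be told apart from a member.

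Counts were tested as deposited with edgeR 4.0.16 (quasi-likelihood, TMM, filterByExpr with a minimum count of 10 and total of 15; limma 3.58.1) in R 4.3.3, in 1 fit per experiment over all its conditions, with Benjamini-Hochberg adjustment over all genes tested. The SE is the absolute log2 fold change over the square root of F. The dose difference was an interaction in a fit over both dopamine experiments. On simulated counts of 17417 genes for 1 mM Acute 1 h over PBS, 86 of 100 genes changed by log2 1 and 100 of 100 changed by log2 2 were found, with 6 false calls. The simulation gave all genes the same dispersion, changed only genes above a minimum of reads and held no library that stands apart. Its rates therefore do not carry over to members with a large SE in the real fit, such as KLF10 (0.54) and KLF5 (0.47). Tables and figures were made with Python 3.11.15, numpy 2.4.6, pandas 2.3.3 and matplotlib 3.10.9.

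All 10 members are named in the main comparisons, genes of the lists where they were called, and for each member the 2 genes of highest Pearson correlation (log2 CPM, pseudocount 0.5). The members, lists and promoter motifs were chosen with earlier results of these data known. Alternatives were DESeq2 1.42.0, its size factors, total gene reads, no filter, a replicate block, fits of the compared groups alone and leaving out libraries, and 3 were added after seeing the data: intron reads only, and fits without the 1 µM replicate 2 libraries or without quinpirole replicate 1. No pair of libraries held identical counts. Exon reads per library ran from 137051 to 27702963. Same-numbered replicates did not deviate together in every pair, so the block is an alternative only. A labelled 5 Day sample, the other agonist, QRT-PCR and immunostaining were not analysed here.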

Additional observations from a re-analysis of the deposited data

Results flagged for a closer look

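The KLF6 response at Acute 1 h differed between the doses. It was 1.71 higher on the log2 scale at 1 mM than at 1 µM in edgeR's interaction test (SE 0.39, adjusted p = 0.022), with KLF6 above its PBS mean in 3 of 3 libraries at 1 mM and below it in 3 of 3 at 1 µM. The dose cannot be told apart from the experiment. No group held 4 or more libraries, so no group could be searched for a sample far from the others.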

How the results depend on the processing

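Over the fold changes of the 10 members in all comparisons and settings, 2781 kept their side of the threshold, 103 became called, 76 lost their call and 10 reversed. A reversal was counted only where the sign turned and at least 1 of the 2 values was called. Signs that turned without a call are therefore among the 2781. An example is KLF6 at 1 mM Acute 24 h over PBS, at 0.58 with all libraries and -0.29 without replicate 1. Each number below is a count of members called where it moved by over 1.5 times from the reported one, and the cause was not tested unless stated. On total gene reads, 6 members were called at 1 mM Acute 1 h, 5 at Acute 24 h and 5 for Chronic 1 h against Acute 1 h. Of all 26006 genes tested there, 12271, 11388 and 10437 were called in either direction. The same reads gave 2 at 4 Day and 1 at 5 Day, beside 463 and 221 of 21690 genes. They gave 4 for the dose difference at Acute 1 h, beside 7299 of 26135 genes. With DESeq2's Wald test, 2 were called for 1 mM Chronic 1 h against Acute 1 h and 2 for 1 mM Acute 24 h against Acute 1 h, beside 2751 and 2271 of 17804 genes. It called 1 for the latter comparison at 1 µM, beside 421 of 16541 genes. For the settings that follow, shares of all genes are not given unless stated here or above. Such shares moved with the setting. At 1 mM Acute 1 h, 2845 of 17804 genes were called in the reported fit and 7236 of 18178 without Acute 24 h replicate 1. Counts printed without a share are therefore not a result about the KLF genes in particular. DESeq2's size factors gave 1 at 5 Day, and no filter on low counts gave 1 for 1 µM Acute 24 h against Acute 1 h. In fits of the compared groups alone, which hold fewer samples, 8 were called at 1 mM Acute 1 h, 0 at Acute 24 h, 6 at Chronic 1 h, 4 for Chronic 1 h against Acute 1 h, 0 for Acute 24 h against Acute 1 h, 0 at 1 µM Acute 1 h, 1 at 5 Day, 3 for SKF82958 and 1 for the dose difference at Chronic 1 h.

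The fit without replicate 1 of 1 mM Acute 24 h, a library outside the groups compared, gave 8 at Acute 1 h, 5 at Chronic 1 h, 2 at Chronic 24 h, 4 for Chronic 1 h against Acute 1 h, and 3 and 1 for the dose difference at Acute 1 h and Chronic 1 h. The fit without quinpirole replicate 1 gave 3 for SKF82958. Without replicate 2 of PBS, Acute 1 h and Chronic 1 h at 1 µM, 2 were called at Acute 1 h, 2 at Chronic 1 h, 3 for Acute 24 h against Acute 1 h and 2 for the dose difference at Acute 1 h. On intron reads, 7 were called at 1 mM Acute 1 h (45.2% of genes in either direction), 2 at Chronic 1 h (2.54%) and 3 for Chronic 1 h against Acute 1 h (32.9%). They gave 4 for 1 mM Acute 24 h against Acute 1 h (5.93%), 0 at 1 µM Acute 24 h (2.85%) and 1 for 1 µM Acute 24 h against Acute 1 h (1.28%). At 1 µM Acute 1 h and Chronic 1 h the member called on intron reads was KLF13, and KLF6 was not called. Intron reads reversed KLF9 (-0.48) and KLF16 (0.93) at 1 mM Acute 1 h, KLF9 for Chronic 1 h against Acute 1 h (0.51), KLF7 for Acute 24 h against Acute 1 h (-0.76), and KLF6 at 1 µM Acute 1 h (0.61) and Chronic 1 h (0.33).

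With each library of the compared groups left out in turn, the count ran from 2 to 3 at 1 mM Acute 1 h, 0 to 5 at Acute 24 h, 0 to 1 for Chronic 1 h against Acute 1 h, 0 to 8 for Acute 24 h against Acute 1 h, 1 to 2 at 1 µM Acute 1 h, 1 to 4 at 2 Day, 2 to 5 at 3 Day, 1 to 2 at 4 Day, 1 to 3 at 5 Day, 0 to 1 for 5 Day against 3 Day and 0 to 1 for the dose difference at Acute 1 h. Reversals with a call among these came from 1 mM Acute 24 h replicate 1: KLF10 over PBS ran from -0.45 to 1.55, and against Acute 1 h KLF7 ran from -0.32 to 0.49, KLF10 from -1.12 to 0.88 and KLF11 from -0.58 to 0.26.

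The replicate block gave 1 call at 1 mM Acute 24 h (KLF5 lost, adjusted p = 0.0627) and 1 at 5 Day (KLF6 lost, adjusted p = 0.0521), and at 2 Day KLF4 was lost (adjusted p = 0.0555). It changed no other call of a member. The labels name nothing that same-numbered libraries share, and not every pair correlated over 0.1 in its deviations from the group means: 3 of 30 pairs did at 1 mM, 14 of 30 at 1 µM, 4 of 26 in the time course and 1 of 9 for the agonists. At 1 µM r ran from -0.30 to 0.45, and replicate 2 of 3 conditions was low in GC-rich genes. Few reads lay behind KLF2, KLF4, KLF5 and KLF9, with 9 to 11 exon reads of KLF4 per PBS library at 1 µM.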
